A study of Homo sapiens with 27 samples.

Results

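Ribosome biogenesis factors make, modify and cut ribosomal RNA (rRNA) and assemble it with ribosomal proteins, mostly in the nucleolus. The 43 genes described here were named for that known role, with earlier results of these data known. All 43 had a row among the 21487 genes of the count table. By role they comprised 3 subunits of RNA polymerase I, 3 proteins of box C/D and 4 of box H/ACA small nucleolar ribonucleoproteins (snoRNPs), and the snoRNP chaperone NOLC1. A further 9 belonged to the early small-subunit processome and 5 to later small-subunit assembly. The PeBoW complex gave 3, other large-subunit assembly 11, and abundant nucleolar proteins with a helicase 4.

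Polyadenylated RNA was sequenced from Panc1, an established human pancreatic ductal adenocarcinoma line, in 27 libraries forming 9 groups of 3. ARNT, the gene knocked out, encodes the partner subunit that the hypoxia-inducible factors and the aryl hydrocarbon receptor need to bind DNA. The genotypes were clone A, clone B and parental cells. Clone A and clone B are ARNT knockouts derived independently with CRISPR-Cas9, and each is 1 clone, so a trait of that clone and an effect of the knockout cannot be told apart within it. Each genotype was kept for 48 hours in hypoxia (1% O2) with TIFM, in hypoxia in regular medium, or in normoxia (20% O2) in regular medium. TIFM is a medium composed after the fluid found within pancreatic tumors, and the regular medium was DMEM with serum and antibiotics. TIFM was used under hypoxia alone, so its effect was read within hypoxia, and the hypoxic libraries in regular medium serve both comparisons. The series' title gives the part of ARNT in the response to hypoxia as its question.

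Ribosome production starts with RNA polymerase I, which transcribes a long precursor rRNA. The small-subunit processome folds and cuts that precursor as it emerges, snoRNPs guide ribose methylation and pseudouridylation, and separate sets of factors mature and export each subunit. The pathway takes up much of the biosynthetic capacity of a growing cell, is governed by nutrient supply through mTORC1 and by the transcription factor MYC, and is often raised in tumors. MYC with its partner MAX binds the DNA word CACGTG, the E-box, near the start of many of these genes.

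RefSeq promoter windows (GRCh38.p14, 250 bases before to 50 after each start) were at hand for 37 of the 43 members, and CACGTG stood in a window of 18 of these 37 (48.6%). Among all 10935 tested genes with a window it stood in 12.2%. Counted by window, the shares were 42.9% of 42 member windows and 8.98% of 16082. CACGTG reads the same on both strands. Of its 19 occurrences, 18 began within 100 bases of the start, and the positions ran from −170 to 36. Other ribosome biogenesis factors held it in 27.6% of 87 genes and cytosolic ribosomal proteins in 7.14% of 56. The word GCGTG, a form of the core of the sites that hypoxia-inducible factors bind, was searched as GCGTG or CACGC. It stood in 70.3% of the members and 57.1% of all tested genes. The form ACGTG, which lies within CACGTG, was not searched on its own, so these shares are not those of the whole core. CACGTG and GCGTG can share letters where they overlap, and each was counted on its own. A match is a description of letters and not a site in use.

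The stretches below run from 100 bases before to 50 after the start, on the gene's strand, with CACGTG in capitals. The first 5 are from members with a large TIFM change that hold the word, and the last 2, LAS1L and NOP56, hold none and changed in opposite directions. They lie at chr4:2963357-2963506 (minus strand, NOP14), chr22:30591861-30592010 (minus, PES1), chr3:51941855-51942004 (minus, RRP9), chr10:68956547-68956696 (plus, DDX21), chr1:19251705-19251854 (plus, MRTO4), chrX:65534738-65534887 (minus, LAS1L) and chr20:2652532-2652681 (plus, NOP56).
NOP14: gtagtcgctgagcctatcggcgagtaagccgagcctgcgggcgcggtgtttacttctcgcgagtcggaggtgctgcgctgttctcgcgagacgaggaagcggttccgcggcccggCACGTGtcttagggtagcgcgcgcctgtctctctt
PES1: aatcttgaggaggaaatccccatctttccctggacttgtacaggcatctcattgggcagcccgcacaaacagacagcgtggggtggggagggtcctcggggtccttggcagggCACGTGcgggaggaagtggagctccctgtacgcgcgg
RRP9: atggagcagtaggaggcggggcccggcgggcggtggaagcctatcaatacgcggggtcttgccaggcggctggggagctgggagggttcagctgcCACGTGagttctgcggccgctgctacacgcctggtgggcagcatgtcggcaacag
DDX21: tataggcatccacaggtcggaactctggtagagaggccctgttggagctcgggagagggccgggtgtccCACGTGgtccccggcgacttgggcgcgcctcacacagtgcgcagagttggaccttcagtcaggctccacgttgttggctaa
MRTO4: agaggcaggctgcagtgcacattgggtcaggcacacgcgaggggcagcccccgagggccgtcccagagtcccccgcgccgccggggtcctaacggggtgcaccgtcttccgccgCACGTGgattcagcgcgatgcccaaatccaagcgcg
LAS1L: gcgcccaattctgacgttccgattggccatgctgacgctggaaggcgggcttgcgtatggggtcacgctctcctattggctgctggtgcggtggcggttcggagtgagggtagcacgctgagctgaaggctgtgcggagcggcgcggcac
NOP56: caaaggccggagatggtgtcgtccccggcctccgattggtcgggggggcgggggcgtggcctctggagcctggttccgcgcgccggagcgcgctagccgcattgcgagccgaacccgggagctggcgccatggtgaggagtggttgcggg
Counting the start as base 1, the word began at base 16 in NOP14, 14 in PES1 and 15 in MRTO4, and 5 bases before the start in RRP9 and 31 before it in DDX21.

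Libraries held 26057022 to 38341713 counts (median 31727174). Over all genes no pair of replicates agreed within counting error (lowest chi-square per degree of freedom 4.6). In the tightest groups the spread of single members can be as small as their counting error, as for LTV1 in clone B normoxia (13.9 ± 0.52 CPM, SD, n = 3). No label says that the replicates were separate cultures, and p-values therefore measure the spread between these libraries only. Levels scaled to library size are relative to the other genes of a library, and total RNA per cell cannot be read from them. In bulk RNA, a lower level can be fewer cells holding the transcript or less of it per cell, and these cannot be told apart. ARNT transcripts were present at 44.6 to 77.4 CPM in all 27 libraries, which is no check of the knockout, as the transcript of a disrupted gene may persist. KRT8, KRT18, KRT19 and VIM, markers of the line, were each at 71.9 CPM or more throughout, while KRT7 was at 2.02 to 12.4 CPM. Of 15 markers of other cell types, 8 stayed under 1 CPM in every library, INS was at 0, and CD68 alone passed 10 CPM. Their summed level was 169 to 306 CPM in clone A in TIFM and 116 to 161 in clone A in hypoxia, nearly all of it CD68, and their part in the results was not tested. Clone A in TIFM was the most variable group, with a coefficient of variation of 29.2% between replicates against 4.52% to 17.3% in the others. Its libraries, and parental TIFM replicate 2, also held relatively more counts in short genes (Spearman correlation across 9758 genes of level with exon length −0.13, −0.27 and −0.30 in clone A TIFM and −0.26 in that parental library).

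Levels are CPM, counts scaled to library size with TMM factors, and comparisons between genes use CPM per kilobase of exon. Of the 43 members, 39 passed the filter on low counts, and PNO1, NOP2, NOP16 and NIP7 are listed at 0 counts in all 27 libraries. The table lists 3417 genes at 0 throughout, and why these 4 are among them was not tested. The exons of NOP2 are shared over 54.4% of their length with AC006064.6, those of NIP7 over 20.2% with COG8, those of NOP16 over 20.0% with ARL10 and those of PNO1 over 10.4% with AC017083.3. Per kilobase in parental normoxia, FBL was highest at 1284 ± 224 CPM per kilobase (SD, n = 3), followed by NPM1 at 406 ± 15.5, NCL at 274 ± 8.35 and DDX21 at 159 ± 1.93. At the low end were POLR1C at 7.76 ± 0.67, GRWD1 at 7.81 ± 1.37, LTV1 at 8.02 ± 0.38 and UTP15 at 8.04 ± 0.32 CPM per kilobase. The last 4 lay within their spread of each other. NPM1 has many processed pseudogenes, so its counts are less certain.

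Under hypoxia, TIFM raised most of the ribosome biogenesis factors in both clones, and fewer in parental cells, where 1 library carried part of the count. Relative to hypoxia in regular medium, 34 of the 39 tested members were higher and 1 lower in clone A, 30 higher and 1 lower in clone B, and 22 higher and 4 lower in parental cells (edgeR quasi-likelihood test, Benjamini-Hochberg adjusted p under 0.05 over 13943 genes). Of all tested genes 33% were higher and 34.2% lower in clone A, 25.9% higher and 27.9% lower in clone B, and 21.8% higher and 20.4% lower in parental cells. The median log2 change of the members was 1.46 in clone A, 0.79 in clone B and 0.35 in parental cells, against medians of −0.03, −0.03 and 0.00 over all genes. In 21 members the change was called higher in all 3 genotypes, and in 25 it was larger in clone A than in clone B and larger in clone B than in parental cells. The shares of all tested genes that met either of these joint conditions were not computed. Without parental TIFM replicate 2, the library with more counts in short genes, 15 members were higher and 1 lower in parental cells, and without parental hypoxia replicate 1 the counts were 17 and 1. Values in parentheses after a lost call are log2 changes without the library named. Across the 39 members, the TIFM log2 change had a Spearman correlation with exon length of −0.39 in clone A, −0.16 in clone B and −0.39 in parental cells. With an offset for exon length in each library, 35 members were higher and 2 lower in clone A, 30 higher and 1 lower in clone B, and 19 higher and 3 lower in parental cells. Scaled to library totals without TMM factors, 18 were higher and 5 lower in parental cells.

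The summed level of the 39 members in the 3 libraries was 27260 to 32560 CPM in TIFM, 9184 to 12390 in hypoxia and 12650 to 13170 in normoxia in clone A. In clone B it was 18700 to 19730 CPM in TIFM, 10690 to 11320 in hypoxia and 11140 to 11390 in normoxia. In parental cells it was 14550 to 15660 CPM in TIFM, 9899 to 10240 in hypoxia and 10570 to 11860 in normoxia. The sum in TIFM stood above hypoxia and normoxia in every genotype without overlap. Abundant members weigh most in it: FBL averaged 12640 CPM of a mean sum of 30150 in clone A TIFM, and 5143 of 15140 in parental TIFM. The median member, as log2 CPM minus the gene's mean over the libraries, was at −0.089, 0.137 and −0.049 in parental TIFM. In parental normoxia it was at −0.139, 0.03 and −0.196, overlapping TIFM. In both clones these medians were higher in TIFM than in the other conditions without overlap. As a share of all counts the members took 2.43% to 2.55% in TIFM, 0.97% to 1.27% in hypoxia and 1.30% to 1.34% in normoxia in clone A. The lowest value, 0.97%, came from clone A hypoxia replicate 1, which was the lowest library of its group for 36 of the 39 members.

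**Figure D1:**
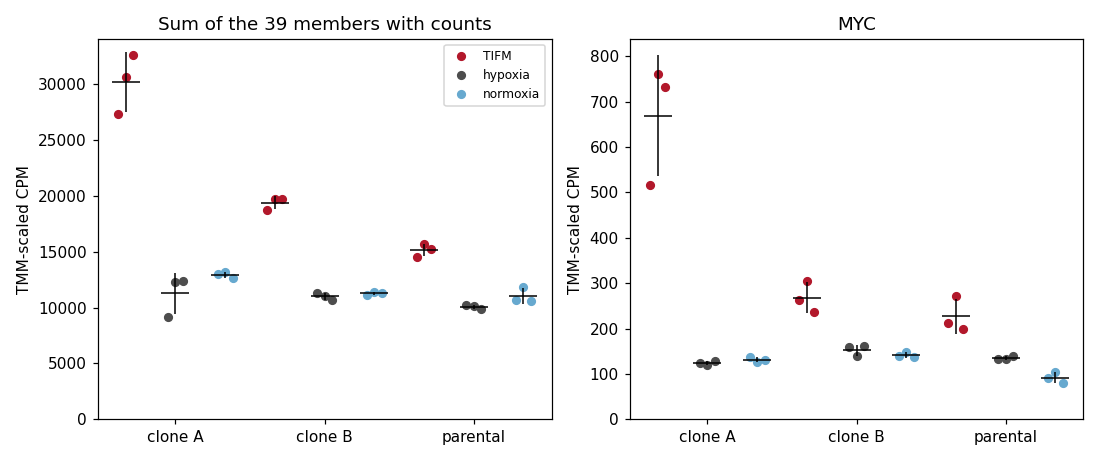
Summed TMM-scaled CPM of the 39 members with counts (left) and CPM of MYC (right) by genotype and condition; points are libraries, horizontal lines group means and vertical lines the SD (n = 3). TIFM libraries of clone A sit highest in both panels, at 27260 to 32560 CPM for the sum and 517 to 760 CPM for MYC.

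Hypoxia in regular medium lowered part of the set. Relative to normoxia, 21 members were lower and none higher in clone A, 6 lower and 1 higher in clone B, and 16 lower and none higher in parental cells. Of all tested genes 11.8% were lower and 10.4% higher in clone A, 4.84% lower and 4.46% higher in clone B, and 14.9% lower and 15.4% higher in parental cells. The members' median log2 change was −0.42 in clone A, −0.17 in clone B and −0.37 in parental cells, against −0.01, −0.02 and 0.00 over all genes. GRWD1, NAT10, NOLC1, NPM3, POLR1A and RRS1 were called lower in all 3 genotypes. Another 16 members were called in none, among them FBL, DKC1, NOP58, NCL, NPM1 and DDX21. The shares of all tested genes called lower in all 3 genotypes or called in none were not computed. Single libraries carried part of the counts in each genotype. Without clone A hypoxia replicate 1, the lowest library of its group for most members, 13 members were lower and 1 higher in clone A, with the calls of RRP15, NOP14, BYSL, WDR75, HEATR1, WDR12, UTP4 and TSR1 lost. In parental cells 12 to 15 members were lower with 1 library left out, the calls that were lost in turn being those of UTP20, UTP4, WDR75, RRP12 and POLR1B. The clone B count was 2 without clone B hypoxia replicate 3, 3 without hypoxia replicate 2 or normoxia replicate 2, and 4 without normoxia replicate 1 or 3.

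**Figure D2:**
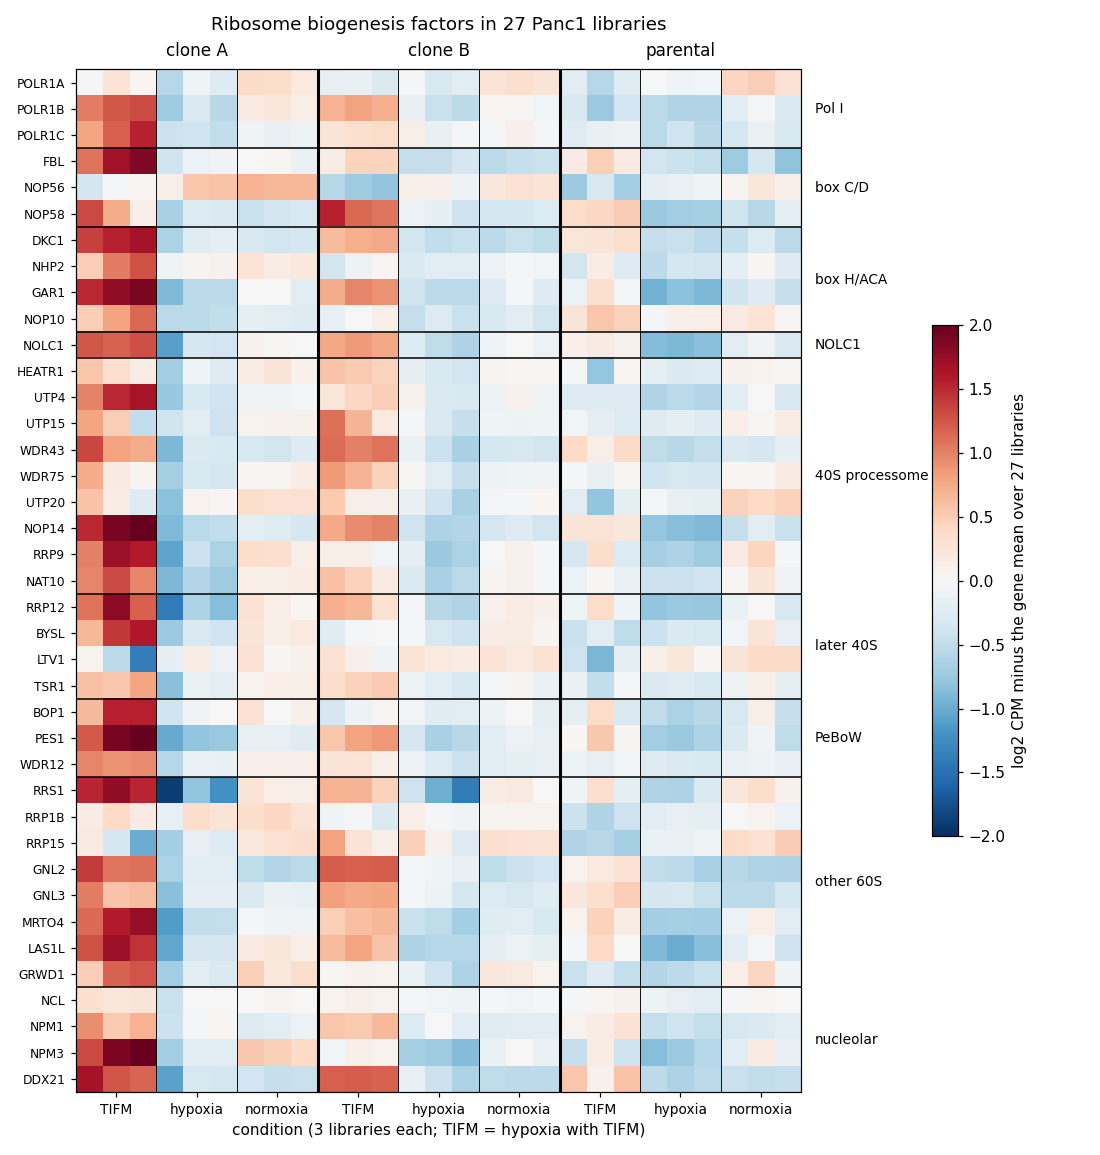
Log2 CPM of each of the 39 members in each of 27 libraries, minus that gene's mean over the libraries; rows are genes grouped by role and columns libraries grouped by genotype and condition. The clone A TIFM columns are the reddest block, and LTV1 and RRP15 turn blue in replicates 2 and 3 there.

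Among RNA polymerase I subunits, POLR1B, the second-largest subunit, and POLR1C, a subunit shared with RNA polymerase III, rose in TIFM in both clones, while POLR1A, the largest subunit, rose in clone A and fell in parental cells by small amounts. POLR1A had 134, 166 and 139.8 CPM in TIFM, 91.7, 128 and 114 in hypoxia and 179, 174 and 156 in normoxia in clone A. In parental cells it had 116, 91.9 and 115 CPM in TIFM, 137, 129.6 and 131 in hypoxia and 183, 192 and 166 in normoxia. In both genotypes every hypoxic library in regular medium lay below every normoxic one, and the TIFM libraries lay above hypoxia in clone A and below it in parental cells. The TIFM change was 0.39 ± 0.12 log2 in clone A, −0.01 ± 0.12 in clone B and −0.30 ± 0.12 in parental cells, each ± its SE, with an adjusted p of 0.00427 in clone A and 0.0389 in parental cells. The parental call was lost when any 1 library other than parental TIFM replicate 1 or 3 was left out (−0.20 to −0.32). Hypoxia changed POLR1A by −0.60 ± 0.12 log2 in clone A, −0.47 ± 0.12 in clone B and −0.45 ± 0.12 in parental cells, called in each. In clone B that call was lost without clone B hypoxia replicate 2 or 3 (−0.42 to −0.45).

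POLR1B had 161, 175 and 165 CPM in TIFM and 89.3, 73.2 and 69.5 in hypoxia in clone B, and 80.6, 60.1 and 76.7 CPM in TIFM and 68.6, 65.8 and 65.3 in hypoxia in parental cells. The clone B groups were apart and the parental ones overlapped. Its TIFM change was 1.70 ± 0.12 log2 in clone A, 1.11 ± 0.12 in clone B and 0.12 ± 0.12 in parental cells, the parental value not being called (adjusted p = 0.427). POLR1C changed in TIFM by 1.64 ± 0.13 log2 in clone A, 0.34 ± 0.12 in clone B and 0.34 ± 0.12 in parental cells. The POLR1C call was lost when any 1 library other than clone B hypoxia replicate 1 or clone B TIFM replicate 1 was left out (0.27 to 0.33) in clone B, and when any 1 library other than parental hypoxia replicate 2 or parental TIFM replicate 1 was left out (0.30 to 0.33) in parental cells. Exons of POLR1C are shared over 18.2% of their length with AL355802.2 on the opposite strand.

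The box C/D snoRNPs, which carry out ribose methylation, held members of 1 complex that moved in opposite directions. FBL, the methyltransferase, and NOP58 rose in TIFM in all 3 genotypes, while NOP56, the partner of NOP58 in the same core, fell in all 3. NOP56 had 181, 229 and 239.7 CPM in TIFM, 255, 343 and 347 in hypoxia and 381, 369.8 and 371 in normoxia in clone A. In clone B it had 158, 144 and 135 CPM in TIFM, 255, 252 and 219 in hypoxia and 274, 290.2 and 283 in normoxia. In parental cells it had 141, 187 and 145 CPM in TIFM, 207, 213 and 220.2 in hypoxia and 242, 275 and 254 in normoxia. Every TIFM library lay below every hypoxic library in regular medium in its genotype. The TIFM change of NOP56 was −0.54 ± 0.12 log2 in clone A, −0.73 ± 0.12 in clone B and −0.44 ± 0.12 in parental cells (adjusted p = 0.000331, 1.55e-05 and 0.00497 for the same genotypes). It was called with any 1 library left out. Hypoxia in regular medium gave −0.25 ± 0.12 log2 in clone A, −0.22 ± 0.12 in clone B and −0.27 ± 0.12 in parental cells, none of them called. Exons of NOP56 are shared over 8.74% of their length with SNORA51.

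NOP58 had 692, 524 and 496 CPM in TIFM and 218, 207 and 176 in hypoxia in clone B, and 304, 314 and 335 CPM in TIFM and 141, 146 and 148 in hypoxia in parental cells. In clone A it had 585, 396 and 259 CPM in TIFM and 150.3, 195 and 193 in hypoxia, widely spread in TIFM but all above hypoxia. The TIFM change was 1.20 ± 0.18 log2 in clone A, 1.51 ± 0.18 in clone B and 1.13 ± 0.18 in parental cells. FBL changed by 1.77 ± 0.15 log2 in clone A, 0.78 ± 0.15 in clone B and 0.71 ± 0.15 in parental cells. Neither gene was called in hypoxia in regular medium.

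**Figure D3:**
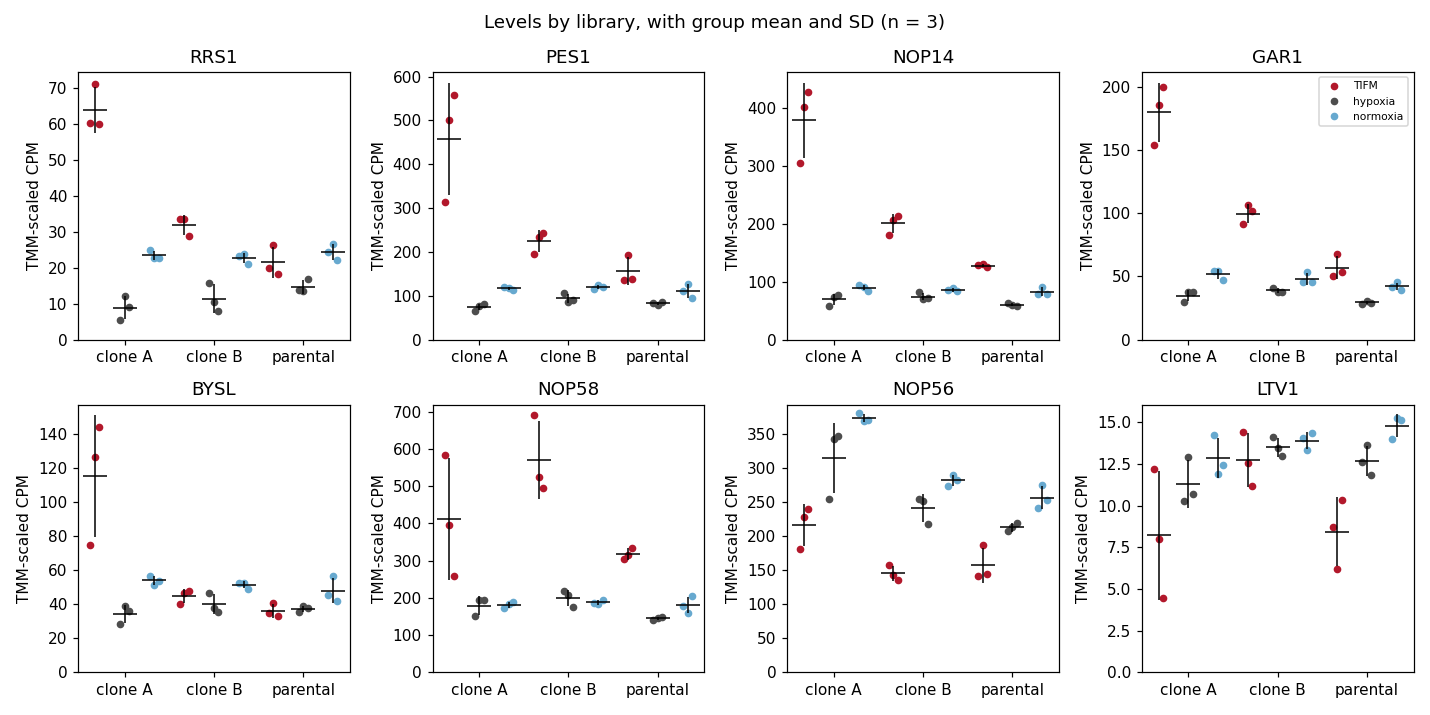
TMM-scaled CPM of RRS1, PES1, NOP14, GAR1, BYSL, NOP58, NOP56 and LTV1 in each library by genotype and condition, with group means and SD (n = 3). In clone A, TIFM libraries lie above hypoxia for the first 6 genes, below it for NOP56, and overlap it for LTV1.

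All 4 box H/ACA proteins, which carry out pseudouridylation, rose in TIFM in clone A, and 3 of 4 did so in clone B and in parental cells, NHP2 being the one without a call. GAR1 had 154, 186 and 199.6 CPM in TIFM and 29.6, 37.6 and 37.5 in hypoxia in clone A. In clone B it had 91.2, 106 and 101 CPM in TIFM and 41.2, 38.04 and 37.6 in hypoxia, and in parental cells 50.2, 67.8 and 53.1 CPM in TIFM and 28.2, 30.8 and 29.3 in hypoxia. The groups were apart in each genotype, with TIFM changes of 2.37 ± 0.13 log2 in clone A, 1.36 ± 0.12 in clone B and 0.95 ± 0.12 in parental cells. DKC1, the pseudouridine synthase, changed by 1.88 ± 0.10 log2 in clone A, 1.14 ± 0.10 in clone B and 0.76 ± 0.10 in parental cells, and in hypoxia in regular medium it was not called in any genotype. NOP10, the smallest core protein, changed in TIFM by 1.36 ± 0.12 log2 in clone A, 0.38 ± 0.12 in clone B and 0.35 ± 0.12 in parental cells. That call was lost without clone B TIFM replicate 3 (0.32) in clone B, and without parental hypoxia replicate 1 or parental TIFM replicate 2 or 3 (0.28 to 0.34) in parental cells. NHP2 shares 27.4% of its exon length with RMND5B on the opposite strand.

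NOLC1, which chaperones both snoRNP classes, had 595, 631 and 595 CPM in TIFM and 305, 298 and 313 in hypoxia in parental cells, with no overlap. It rose in TIFM by 1.80 ± 0.13 log2 in clone A, 1.25 ± 0.13 in clone B and 0.99 ± 0.13 in parental cells and fell in hypoxia, with changes of −0.60 ± 0.12 log2 in clone A, −0.40 ± 0.12 in clone B and −0.68 ± 0.12 in parental cells. In clone B the hypoxia call was lost when any 1 library other than clone B hypoxia replicate 1 was left out (−0.33 to −0.42).

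The 9 processome proteins assemble on the nascent precursor rRNA and prepare the early cuts around the small-subunit rRNA. In TIFM 8 rose in clone A, all 9 in clone B and 4 in parental cells (NAT10, NOP14, RRP9 and WDR43). In hypoxia 6 fell in clone A, 1 in clone B and 6 in parental cells. Of these calls, those of NOP14 (−0.26), WDR75 (−0.41), HEATR1 (−0.34) and UTP4 (−0.30) in clone A were lost without clone A hypoxia replicate 1. The NOP14 call was also lost without clone A normoxia replicate 1 or 2, and that of HEATR1 without normoxia replicate 2. The UTP4 call in clone A was lost when any 1 library other than clone A hypoxia replicate 2 was left out (−0.30 to −0.46). In parental cells that of UTP20 was lost without any 1 of the 6 libraries (−0.53 to −0.60), that of UTP4 when any 1 library other than parental normoxia replicate 3 was left out (−0.31 to −0.43) and that of WDR75 when any 1 library other than parental normoxia replicate 1 or 2 was left out (−0.38 to −0.44). NOP14, a core processome protein, had 305, 401 and 428 CPM in TIFM and 58.4, 73.8 and 76.5 in hypoxia in clone A, and 128, 130.3 and 125 CPM in TIFM and 62.9, 59.5 and 58.3 in hypoxia in parental cells. The groups were apart in both. Its TIFM change was 2.44 ± 0.12 log2 in clone A, 1.43 ± 0.12 in clone B and 1.08 ± 0.12 in parental cells (adjusted p = 8.65e-15, 3.06e-10 and 6.10e-08 for the same genotypes). NOP14 shares 17.1% of its exon length with its antisense gene NOP14-AS1, and whether the counting used strand is not given in the sources used here.

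WDR43, a subunit also needed for rRNA transcription, had 443, 409.5 and 436 CPM in TIFM and 186, 152 and 131 in hypoxia in clone B, with no overlap. It changed in TIFM by 1.46 ± 0.15 log2 in clone A, 1.46 ± 0.15 in clone B and 0.82 ± 0.14 in parental cells. HEATR1, UTP15, WDR75 and UTP20, also processome proteins, had larger TIFM values in clone B than in clone A: 0.80, 0.95, 0.88 and 0.64 log2 in clone B and 0.68, 0.70, 0.79 and 0.39 in clone A. None of these differences between the clones was called. UTP20 missed the threshold in clone A (adjusted p = 0.0859), and its call in clone B was lost without clone B hypoxia replicate 3 (0.52). UTP15 in clone A TIFM had 82.8, 67.4 and 34.02 CPM, overlapping hypoxia, and its call was lost without clone A TIFM replicate 1 (0.43). HEATR1 shares 23.2% of its exon length with LGALS8 on the opposite strand.

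RRP9, which binds the guide snoRNA of the processome, and NAT10, which acetylates small-subunit rRNA, were among the members that fell most in hypoxia. RRP9 had 13.01, 20.2 and 17.6 CPM in hypoxia and 34.5, 34.3 and 29.6 in normoxia in clone A, and 17.1, 17.6 and 16.6 CPM in hypoxia and 30.4, 36.4 and 26.3 in normoxia in parental cells. NAT10 had 50.2, 62.02 and 56.8 CPM in hypoxia and 102, 101 and 103 in normoxia in clone A, and 76.6, 59.8 and 64.6 CPM in hypoxia and 97.03, 99.2 and 90.96 in normoxia in clone B. Hypoxia and normoxia did not overlap in these groups. RRP9 changed by −0.95 ± 0.19 log2 in clone A, −0.53 ± 0.19 in clone B and −0.86 ± 0.19 in parental cells, not called in clone B (adjusted p = 0.0725). NAT10 changed by −0.86 ± 0.12 log2 in clone A, −0.52 ± 0.12 in clone B and −0.49 ± 0.12 in parental cells, called in each.

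In TIFM RRP9 changed by 2.15 ± 0.19 log2 in clone A, 0.57 ± 0.19 in clone B and 0.62 ± 0.19 in parental cells, and NAT10 by 1.83 ± 0.12 log2 in clone A, 0.90 ± 0.12 in clone B and 0.35 ± 0.12 in parental cells. All 6 changes were called. For RRP9 the call was lost without clone B hypoxia replicate 2 or 3 (0.47 to 0.51) in clone B, and without parental TIFM replicate 2 (0.36) in parental cells. For NAT10 the parental call was lost without parental hypoxia replicate 1 or 2 or parental TIFM replicate 2 (0.30 to 0.34).

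Later small-subunit factors were less uniform. RRP12, an export and processing factor, and BYSL, a component of precursor small subunits, rose in clone A TIFM, whereas LTV1, known from yeast for a part in exporting those particles, fell in parental TIFM. RRP12 had 41.6, 71.4 and 61.2 CPM in hypoxia and 136, 121 and 113 in normoxia in clone A, a change of −1.09 ± 0.19 log2 with no overlap (adjusted p = 0.000304). BYSL had 74.9, 126 and 144 CPM in TIFM and 28.5, 38.9 and 35.9 in hypoxia in clone A, and 34.7, 40.8 and 33.1 CPM in TIFM and 35.1, 38.7 and 37.9 in hypoxia in parental cells. The groups were apart in clone A and overlapped in parental cells. The TIFM change of BYSL was 1.74 ± 0.17 log2 in clone A, 0.16 ± 0.17 in clone B and −0.04 ± 0.17 in parental cells, called in clone A alone. RRP12 rose in TIFM by 2.31 ± 0.20 log2 in clone A, 0.94 ± 0.19 in clone B and 0.85 ± 0.19 in parental cells. TSR1, a late assembly factor, changed by 0.99 ± 0.14 log2 in clone A, 0.66 ± 0.14 in clone B and 0.07 ± 0.14 in parental cells, called in the clones. TSR1 shares 20.9% of its exon length with SRR on the opposite strand.

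LTV1 had 8.74, 6.23 and 10.3 CPM in TIFM and 12.6, 13.7 and 11.9 in hypoxia in parental cells, lower in every TIFM library. Its TIFM change was −0.44 ± 0.21 log2 in clone A, −0.09 ± 0.21 in clone B and −0.59 ± 0.21 in parental cells, called in parental cells (adjusted p = 0.0255). That call was lost without parental hypoxia replicate 1 or 2 or parental TIFM replicate 2 (−0.42 to −0.60). Exons of LTV1 are shared over 34.8% of their length with AL049844.3.

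**Figure D4:**
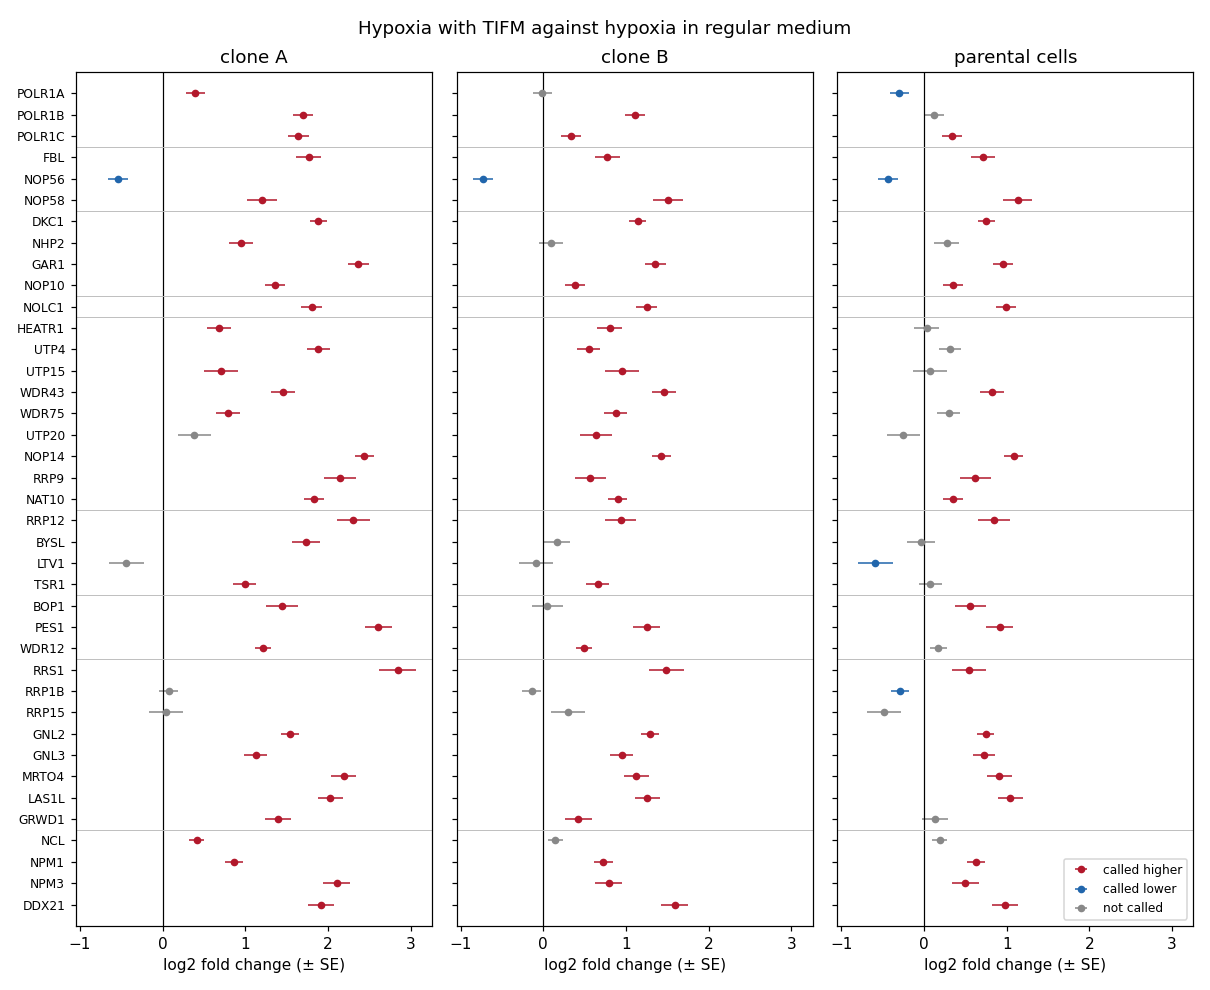
Log2 fold change with its SE (edgeR, 3 libraries a group) of each of the 39 members in hypoxia with TIFM against hypoxia in regular medium, in clone A, clone B and parental cells; colour marks the call at adjusted p under 0.05. Values reach 2.84 in clone A (RRS1), 1.59 in clone B (DDX21) and 1.13 in parental cells (NOP58), and NOP56 lies below 0 in each panel.

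The PeBoW complex of PES1, BOP1 and WDR12 processes large-subunit precursors. All 3 rose in TIFM in clone A, PES1 and WDR12 in clone B, and PES1 and BOP1 in parental cells. PES1 had 314, 500.2 and 558 CPM in TIFM and 66.4, 77.7 and 80.4 in hypoxia in clone A, and 137, 194 and 139.5 CPM in TIFM and 82.8, 79.9 and 86.9 in hypoxia in parental cells. The groups were apart in both. PES1 changed by 2.61 ± 0.17 log2 in clone A, 1.25 ± 0.16 in clone B and 0.91 ± 0.16 in parental cells. BOP1 changed by 1.45 ± 0.19 log2 in clone A, 0.05 ± 0.19 in clone B and 0.56 ± 0.19 in parental cells, and its parental call was lost without parental hypoxia replicate 2 or 3 or parental TIFM replicate 2 (0.34 to 0.56). WDR12 changed by 1.21 ± 0.10 log2 in clone A, 0.49 ± 0.10 in clone B and 0.17 ± 0.10 in parental cells.

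RRS1, a large-subunit assembly factor known from yeast as a regulator of ribosome synthesis, had the largest fall in hypoxia and the largest rise in TIFM of all members, both in clone A. It lies on chromosome 8 (66429028 to 66430733, plus strand, GRCh38). RRS1 had 60.04, 71.1 and 59.95 CPM in TIFM, 5.57, 12.1 and 8.96 in hypoxia and 24.8, 22.8 and 22.6 in normoxia in clone A. In clone B it had 33.6, 33.4 and 28.8 CPM in TIFM, 15.7, 10.6 and 7.92 in hypoxia and 23.1, 23.6 and 21.04 in normoxia. In parental cells it had 19.8, 26.4 and 18.2 CPM in TIFM, 13.7, 13.5 and 16.98 in hypoxia and 24.4, 26.7 and 22.1 in normoxia. Hypoxia in regular medium was the lowest condition in every genotype without overlap, and parental TIFM overlapped parental normoxia. Hypoxia changed RRS1 by −1.40 ± 0.21 log2 in clone A, −0.99 ± 0.21 in clone B and −0.73 ± 0.21 in parental cells (adjusted p = 8.21e-05, 0.00403 and 0.00922 for the same genotypes). TIFM changed it by 2.84 ± 0.22 log2 in clone A, 1.49 ± 0.21 in clone B and 0.54 ± 0.21 in parental cells (adjusted p = 2.79e-11, 1.91e-06 and 0.0379). The parental TIFM call was lost without parental hypoxia replicate 1 or 2 or parental TIFM replicate 2 (0.36 to 0.49). Exons of RRS1 are shared over 11.4% of their length with AC009879.2.

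LAS1L belongs to the endonuclease complex that cuts the spacer beside the large-subunit rRNA, and MRTO4 holds the place of a stalk protein during assembly. LAS1L had 104, 139.8 and 105 CPM in TIFM, 57.3, 53.04 and 58.8 in hypoxia and 90.1, 103 and 79.2 in normoxia in parental cells, with hypoxia apart from both other conditions. It changed in hypoxia by −0.71 ± 0.15 log2 in clone A, −0.43 ± 0.15 in clone B and −0.69 ± 0.15 in parental cells, not called in clone B (adjusted p = 0.0627). TIFM raised LAS1L by 2.03 ± 0.15 log2 in clone A, 1.26 ± 0.15 in clone B and 1.04 ± 0.15 in parental cells. TIFM raised MRTO4 by 2.19 ± 0.15 log2 in clone A, 1.12 ± 0.15 in clone B and 0.91 ± 0.15 in parental cells. GRWD1, a chaperone of ribosomal proteins, had 36.4, 30.4 and 26.1 CPM in hypoxia and 46.7, 45.1 and 41.9 in normoxia in clone B, and 26.5, 27.7 and 29.2 CPM in hypoxia and 43.6, 53.6 and 37.98 in normoxia in parental cells. Hypoxia lay below normoxia in both without overlap, and the change was −0.74 ± 0.16 log2 in clone A, −0.53 ± 0.16 in clone B and −0.70 ± 0.16 in parental cells. In clone B the call was lost when any 1 library other than clone B hypoxia replicate 1 was left out (−0.42 to −0.57).

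GNL2, a nucleolar GTPase of large-subunit maturation, was the member called higher in hypoxia, in clone B. It had 379.6, 378 and 379 CPM in TIFM, 162, 156 and 147 in hypoxia and 116, 122 and 126 in normoxia there, with no overlap. The hypoxia change was 0.35 ± 0.10 log2 (adjusted p = 0.0312), and the call was lost without any 1 of the 6 libraries (0.32 to 0.39). TIFM changed GNL2 by 1.54 ± 0.10 log2 in clone A, 1.29 ± 0.10 in clone B and 0.74 ± 0.10 in parental cells. GNL3, a related GTPase also called nucleostemin, changed by 1.12 ± 0.14 log2 in clone A, 0.95 ± 0.14 in clone B and 0.72 ± 0.14 in parental cells.

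RRP1B and RRP15 stood aside from the rise in TIFM. RRP1B, a nucleolar protein with a yeast counterpart in large-subunit processing, had 58.9, 52.5 and 59.8 CPM in TIFM and 68.3, 71.1 and 69.9 in hypoxia in parental cells, lower in every TIFM library (−0.29 ± 0.11 log2, adjusted p = 0.038). That call was lost when any 1 library other than parental TIFM replicate 3 was left out (−0.23 to −0.32). RRP15, another large-subunit processing factor, changed in TIFM by 0.04 ± 0.20 log2 in clone A, 0.30 ± 0.20 in clone B and −0.49 ± 0.20 in parental cells, none called.

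**Figure D5:**
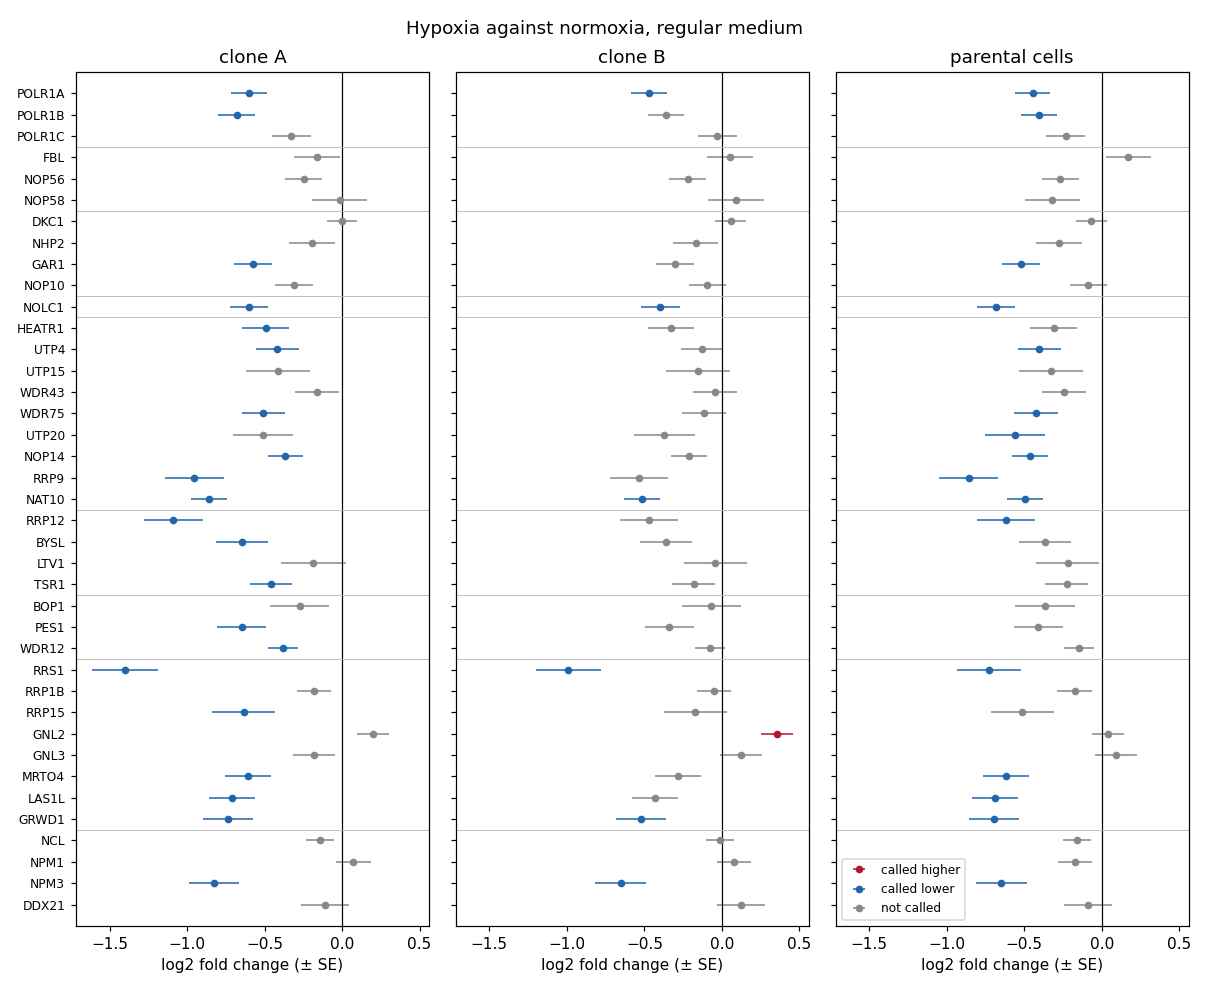
Log2 fold change with its SE (edgeR, 3 libraries a group) of each of the 39 members in hypoxia against normoxia in regular medium, in clone A, clone B and parental cells; colour marks the call at adjusted p under 0.05. RRS1 lies lowest in clone A at −1.40 and clone B at −0.99, RRP9 in parental cells at −0.86, and GNL2 in clone B is the only point called higher.

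Among abundant nucleolar proteins, DDX21, an RNA helicase of rRNA transcription and processing, had the largest TIFM changes in clone B and parental cells. DDX21 had 2515, 2541 and 2482 CPM in TIFM and 982, 816 and 711 in hypoxia in clone B, with no overlap. Its TIFM change was 1.92 ± 0.16 log2 in clone A, 1.59 ± 0.16 in clone B and 0.98 ± 0.15 in parental cells. NCL, the histone chaperone nucleolin, changed by 0.41 ± 0.09 log2 in clone A, 0.14 ± 0.09 in clone B and 0.19 ± 0.09 in parental cells, called in clone A alone. NPM1, nucleophosmin, changed by 0.86 ± 0.11 log2 in clone A, 0.73 ± 0.11 in clone B and 0.63 ± 0.11 in parental cells. NPM3, its smaller relative, had 24.5, 23.7 and 21.1 CPM in hypoxia and 35.1, 38.7 and 35.1 in normoxia in clone B, a change of −0.65 ± 0.16 log2 whose call was lost without clone B hypoxia replicate 3 or clone B normoxia replicate 2 (−0.59 to −0.61). In TIFM NPM3 changed by 2.10 ± 0.17 log2 in clone A, 0.79 ± 0.16 in clone B and 0.50 ± 0.16 in parental cells, and its parental call was lost without parental hypoxia replicate 1 or parental TIFM replicate 2 (0.28 to 0.43).

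The members with CACGTG in a promoter window had a median TIFM log2 change of 1.80 in clone A, 0.92 in clone B and 0.72 in parental cells (16 tested members). Those with a window and no CACGTG had medians of 0.95 in clone A, 0.66 in clone B and 0.17 in parental cells (17 members). This is a description without a test. The ranges overlapped widely: LTV1 held the word and fell in parental TIFM, and LAS1L, without it, rose in all 3 genotypes.

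In normoxia few members were called between the clones and parental cells. Clone A had 6 members higher and 1 lower, where 15.9% and 15.8% of all tested genes were, and clone B none higher and 1 lower, where 13.2% and 13.3% were. FBL had 4248, 4371 and 3860 CPM in clone A and 2595, 3344 and 2431 in parental cells (0.58 ± 0.15 log2), and NOP56, with its values above, differed by 0.54 ± 0.12 log2. NPM3 had 56.1, 53.9 and 51.2 CPM in clone A and 33.2, 43.3 and 34.5 in parental cells (0.54 ± 0.16 log2), and LAS1L 119, 124 and 115 in clone A against the parental values above (0.39 ± 0.15 log2). Clone A and parental libraries did not overlap for any of these 4. The NPM3 call was lost without parental normoxia replicate 1 or 3 (0.47 to 0.49), and that of LAS1L when any 1 library other than parental normoxia replicate 2 was left out (0.30 to 0.41). The count for clone A was 4 without clone A normoxia replicate 2 or parental normoxia replicate 1, and 3 without parental normoxia replicate 3.

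NOP10, the smallest box H/ACA protein, was lower in both clones. It had 63.1, 60.95 and 59.6 CPM in clone A, 57.3, 60.5 and 55.1 in clone B, against 80.2, 86.1 and 72.6 in parental cells in normoxia. In hypoxia it had 49.1, 48.8 and 50.3 CPM in clone A, 51.04, 58.7 and 52.2 in clone B, against 70.2, 76.5 and 78.3 in parental cells. Both clones lay below parental cells in each condition without overlap. In normoxia clone A was lower by 0.38 ± 0.12 log2 and clone B by 0.47 ± 0.12, and in hypoxia clone A was lower by 0.60 ± 0.12 log2 and clone B by 0.47 ± 0.12. The normoxia call of clone A was lost without clone A normoxia replicate 3 or parental normoxia replicate 2 (−0.32 to −0.36). In hypoxic TIFM NOP10 had 100.3, 124 and 157 CPM in clone A, 63.3, 71.1 and 75.99 in clone B, against 84.8, 105 and 97.4 in parental cells. Clone B was lower there (−0.45 ± 0.12 log2) and clone A higher (0.41 ± 0.12 log2), although its lowest library lay within the parental range and the call was lost without clone A TIFM replicate 3 (0.21). Both clones are compared with the same parental libraries.

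In hypoxia in regular medium, 5 members were higher and 3 lower in clone A than in parental cells, where 20.5% and 20.9% of all tested genes were, and 8 were higher and 1 lower in clone B, where 16.9% and 19% were. RRS1 was lower in clone A by 0.73 ± 0.21 log2, a call lost without clone A hypoxia replicate 1 (−0.49). NAT10 was lower by 0.31 ± 0.12 log2, with parental values of 69.3, 69.4 and 70.8 CPM, a call lost when any 1 library other than clone A hypoxia replicate 2 was left out (−0.23 to −0.32). NOP56 was higher in clone A by 0.56 ± 0.12 log2. NHP2 had 49.8, 55.1 and 56.2 CPM in clone A and 36.9, 41.5 and 41.3 in parental cells (0.43 ± 0.15 log2), a call lost without clone A hypoxia replicate 2 or 3 or parental hypoxia replicate 1 (0.38 to 0.41). POLR1C had 56.4, 46.5 and 50.3 CPM in clone B and 35.5, 39.4 and 35.05 in parental cells, higher by 0.48 ± 0.12 log2. GNL2 was higher in clone B by 0.47 ± 0.10 log2, with parental values of 117, 114 and 105 CPM. NOP58 was higher by 0.47 ± 0.18 log2, a call lost when any 1 library other than clone B hypoxia replicate 3 was left out (0.40 to 0.48). The count for clone A ran from 3 without clone A hypoxia replicate 3 to 13 without replicate 1, and was 5 without clone A replicate 2 or parental replicate 3 and 4 without parental replicate 1. For clone B it was 5 without parental hypoxia replicate 1 or 3.

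In hypoxic TIFM both clones stood above parental cells in most members. Clone A had 36 members higher and none lower, with 30.9% of all tested genes higher and 30.7% lower, and a median log2 difference of 1.11 against −0.01 over all genes. With only the groups compared in the fit, 27 were higher and none lower in clone A, and scaled to library totals 28 were higher. Clone B had 28 higher and 1 lower, with 22.1% and 25.4% of all tested genes, and a median of 0.49 against −0.01. NPM3 had 96.3, 142 and 151 CPM in clone A and 28.1, 42.7 and 29.2 in parental cells, 1.96 ± 0.17 log2 higher. UTP4, a processome subunit, had 189, 270.4 and 298 CPM in clone A and 78.4, 79.2 and 79.3 in parental cells (1.68 ± 0.14 log2). BYSL and GAR1 differed by 1.67 ± 0.17 and 1.66 ± 0.12 log2, and all 4 were apart. In clone B the largest differences were POLR1B at 1.20 ± 0.12, RRP15 at 1.03 ± 0.21, GNL2 at 1.01 ± 0.10 and UTP15 at 0.87 ± 0.21 log2. RRP15 had 86.05, 59.4 and 53.5 CPM in clone B and 32.4, 33.5 and 31.2 in parental cells, and UTP15 had 102, 76.2 and 54.4 in clone B and 45.95, 41.9 and 39.5 in parental cells. Both were apart, and GNL2 had 172, 189 and 202 CPM in parental TIFM, below the clone B values above.

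Whether a clone answered hypoxia or TIFM differently from parental cells was tested as the difference of the log2 changes. For hypoxia no member was called in clone A or clone B, where 2.19% of all tested genes were called larger and 4.04% smaller in clone A, and 1.49% larger and 3.24% smaller in clone B. At an unadjusted p under 0.05 clone A had 2 members and clone B had 1, and DESeq2 called none. The members' median difference was −0.06 log2 for clone A and 0.17 for clone B, and single members ran from −0.67 to 0.30 for clone A and from −0.26 to 0.41 for clone B. No member's difference passing the threshold does not show that the responses were alike. Fitting only the groups compared gave 1 called member in clone A and 3 in clone B.

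For TIFM, the response was larger in clone A than in parental cells in 28 members and smaller in none, where 19.3% of all tested genes were called larger and 19.6% smaller. The median difference was 0.94 log2 against −0.03 over all genes. It was largest for RRS1 at 2.30 ± 0.30, BYSL at 1.78 ± 0.24, PES1 at 1.70 ± 0.23 and NPM3 at 1.61 ± 0.23 log2 (adjusted p = 1.81e-06, 3.11e-06, 2.71e-06 and 6.62e-06). By role, all 3 polymerase subunits, all 4 box H/ACA proteins, all 3 PeBoW proteins, 6 of 9 processome proteins and 3 of 4 tested later small-subunit factors were in the count. Of the box C/D proteins only FBL was. With only the groups compared in the fit, the response was larger in clone A in 24 members and smaller in none.

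In clone B the response was larger than in parental cells in 7 members and smaller in none, where 4.06% of all tested genes were called larger and 6.34% smaller, with a median difference of 0.29 log2. POLR1B differed by 0.99 ± 0.17 log2 (adjusted p = 0.000451), and was called with any 1 library left out. RRS1 differed by 0.95 ± 0.29 log2, a call lost when any 1 library other than clone B hypoxia replicate 1, clone B TIFM replicate 3 or parental TIFM replicate 2 was left out (0.74 to 1.01). UTP20 differed by 0.89 ± 0.28 log2, with 176, 133 and 132 CPM in TIFM and 111, 93.6 and 78.6 in hypoxia in clone B, and 106, 71.2 and 108 CPM in TIFM and 119.7, 111 and 109 in hypoxia in parental cells. The call was lost without clone B hypoxia replicate 2 or 3, any 1 parental hypoxia library, clone B TIFM replicate 1 or parental TIFM replicate 2 (0.72 to 0.92). HEATR1, a processome protein, differed by 0.77 ± 0.21 log2, with 287, 278 and 261 CPM in TIFM and 170.1, 156 and 147 in hypoxia in clone B, and 186, 112 and 198 CPM in TIFM and 169.7, 158 and 159 in hypoxia in parental cells. That call was lost without clone B hypoxia replicate 3 or parental hypoxia replicate 1 (0.73 to 0.74). Parental TIFM replicate 2, the library with more counts in short genes, was the lowest of its group for UTP20 and HEATR1, and its part in these differences was not tested beyond leaving it out. The count ranged from 2 without clone B hypoxia replicate 3 or parental hypoxia replicate 1 to 11 without clone B hypoxia replicate 1. It was 3 without clone B hypoxia replicate 2, clone B TIFM replicate 1 or parental hypoxia replicate 2 or 3, and 4 without clone B TIFM replicate 2 or parental TIFM replicate 1.

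Between the clones, a comparison chosen after the data were seen, the TIFM response was larger in clone A in 23 members and smaller in none, where 21.3% of all tested genes were called larger and 18.8% smaller. RRP9 and BYSL differed by 1.58 ± 0.27 and 1.58 ± 0.24 log2, BOP1 by 1.40 ± 0.27 and RRP12 by 1.37 ± 0.27. RRP9 had 54.5, 89.9 and 81.1 CPM in clone A TIFM and 29.4, 29.3 and 26.2 in clone B TIFM, over hypoxia values of 13.01, 20.2 and 17.6 in clone A and 23.6, 16.3 and 17.4 in clone B. BOP1 had 122, 229 and 229 CPM in TIFM and 59.2, 74.4 and 78.6 in hypoxia in clone A, and 61.6, 72.5 and 80.4 CPM in TIFM and 74.8, 66.2 and 66.4 in hypoxia in clone B. RRP12 had 232, 380.2 and 251 CPM in TIFM and 41.6, 71.4 and 61.2 in hypoxia in clone A, and 181, 173 and 136 CPM in TIFM and 108, 75.1 and 72.7 in hypoxia in clone B. In WDR43, HEATR1, WDR75, UTP15, UTP20, NOP58, RRP15 and LTV1 the difference between clones was at or below 0, from 0.00 to −0.36 log2, and none was called.

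Beyond the 43, 107 other ribosome biogenesis factors were looked up and 99 tested. In TIFM 80 of them were higher and 7 lower in clone A, 64 higher and 9 lower in clone B, and 45 higher and 5 lower in parental cells. Over all tested genes, 33% were higher and 34.2% lower in clone A, and 25.9% and 27.9% in clone B. In parental cells these shares were 21.8% and 20.4%. ZNF622, a large-subunit release factor, changed by 3.76 ± 0.16 log2 in clone A, 1.92 ± 0.14 in clone B and 1.55 ± 0.14 in parental cells, and NOL6, a processome protein, by 2.96 ± 0.20 in clone A. In hypoxia 49 were lower and 1 higher in clone A, 12 lower and none higher in clone B, and 50 lower and 2 higher in parental cells. Over all tested genes, 11.8% were lower and 10.4% higher in clone A, and 4.84% and 4.46% in clone B. The parental shares were 14.9% and 15.4%. Cytosolic ribosomal proteins, 71 of 80 tested, were higher in TIFM in 60 cases in clone A, 39 in clone B and 55 in parental cells, and lower in 3 in clone A, 3 in clone B and none in parental cells. In hypoxia none of them was called in either clone and 3 were in parental cells. In hypoxic TIFM, none of the 71 was higher and 9 were lower in clone B than in parental cells, and 28 of the 39 members were higher. In that comparison 22.1% of all tested genes were higher and 25.4% lower. Many ribosomal protein genes have processed pseudogenes, so single values there are uncertain. The snoRNA host genes were not analysed here.

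MYC, known to drive many of these genes, had 517, 760 and 732 CPM in TIFM, 125, 120 and 128 in hypoxia and 137, 127 and 132 in normoxia in clone A. In clone B it had 264, 304 and 236 CPM in TIFM, 159, 139 and 161 in hypoxia and 139, 148 and 137 in normoxia. In parental cells it had 212, 271 and 199 CPM in TIFM, 133, 133 and 140 in hypoxia and 91.4, 104 and 80.9 in normoxia. TIFM stood above hypoxia in each genotype without overlap, by 2.43 ± 0.14 log2 in clone A, 0.81 ± 0.13 in clone B and 0.75 ± 0.13 in parental cells (adjusted p = 8.55e-14, 1.06e-05 and 5.04e-05 for the same genotypes). Hypoxia changed MYC by −0.08 ± 0.13 and 0.11 ± 0.13 log2 in clone A and clone B, not called, and raised it by 0.55 ± 0.13 in parental cells. The TIFM response of MYC was larger in clone A than in parental cells by 1.68 ± 0.18 log2 (adjusted p = 1.96e-07), and that of clone B differed by 0.06 ± 0.18 (adjusted p = 0.879). MAX, its partner, rose in TIFM by 2.74 ± 0.13 log2 in clone A, 1.70 ± 0.12 in clone B and 1.03 ± 0.12 in parental cells. MXD4, a competing partner of MAX, fell by 1.68 ± 0.17 log2 in clone A, 1.58 ± 0.17 in clone B and 1.10 ± 0.16 in parental cells. MXI1, another competing partner, averaged 66.7 ± 6.52 CPM in TIFM and 36.6 ± 4.02 in hypoxia in clone A, 61.7 ± 1.99 in TIFM and 38.6 ± 1.05 in hypoxia in clone B, and 163 ± 15.4 in TIFM and 80.4 ± 2.16 in hypoxia in parental cells (SD, n = 3), where it rose by 1.02 ± 0.10 log2. In parental hypoxia against normoxia, MXI1 rose by 1.93 ± 0.10 log2 and MXD4 by 0.81 ± 0.16. MNT, also a partner of MAX and a repressor, rose in TIFM in clone B by 0.92 ± 0.17 log2. Its TIFM response was larger than in parental cells by 1.53 ± 0.24 log2 in clone A and 0.88 ± 0.24 in clone B, both called. Of 11 tested genes of this network, in TIFM 5 were higher in each clone and 3 in parental cells, and 1 was lower in each genotype. Of all tested genes 33% were higher in clone A, 25.9% in clone B and 21.8% in parental cells, and 34.2%, 27.9% and 20.4% were lower. In parental hypoxia 5 of the 11 were higher and 2 lower, where 15.4% and 14.9% of all tested genes were. The part of MYC in the members' changes was not tested.

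Over the 9 group means, the genes outside the set whose level ran most like the mean of the standardised members were ZNF3, SCO1, MRPS33, UBAP2 and DPF2, with Pearson correlations of 0.991, 0.990, 0.988, 0.987 and 0.985. Within the set, the members least like the mean of the others were LTV1 (−0.50), NOP56 (−0.30), RRP15 (0.02), POLR1A (0.22) and RRP1B (0.28). These are descriptions over 9 group means and carry no test.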

How the data were processed

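RNA sequencing of 27 Panc1 libraries in 9 groups of 3 was used as deposited. The authors' table holds whole-number gene counts with no normalization. Reads were aligned to GRCh38 with HISAT2 and counted with featureCounts, per the submitters' processing notes; their versions, the annotation and the strand setting are not given in the sources used. Ensembl gene IDs were paired with symbols through GENCODE v29 (21383 of 21487 matched), which also gave exon lengths and overlaps.

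Library totals were 26057022 to 38341713 counts. Genes with low counts were removed (edgeR filterByExpr, minimum count 10, minimum total 15), leaving 13943 genes and 39 of the 43 members. edgeR 4.0.16 with limma 3.58.1 in R 4.3.3 was run with TMM factors and a quasi-likelihood fit over all 27 libraries and 9 groups, with 1 contrast for each of 17 comparisons and Benjamini-Hochberg adjustment over all tested genes at 0.05. The biological coefficient of variation was 14.1%. Tests were checked on simulated counts. DESeq2 1.42.0, other scalings, no filter, only the groups compared, a replicate block and leaving out each library were alternatives. Upper-quartile scaling, library totals, exon-length offsets and the comparison between clones were chosen after seeing the data.

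No replicate pair agreed within sampling noise (lowest chi-square per degree of freedom 4.60). Members and gene lists were chosen with earlier results of these data known. Members given library by library are the 4 with the largest change among those called in a comparison and any called against the majority. Of other lists, MYC and at most the 3 largest called changes were named, and likeness was ranked over the 9 group means. Promoters came from RefSeq (GRCh38.p14).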

Additional observations from a re-analysis of the deposited data

Results flagged for a closer look

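The results below are those in which a clone's change in TIFM differed from that of another genotype by a test of the difference itself, the interaction contrast in edgeR. The TIFM response was larger in clone A than in parental cells in 28 of 39 members, with log2 differences of 2.30 for RRS1, 1.78 for BYSL, 1.70 for PES1 and 1.61 for NPM3. In clone B it was larger than in parental cells in 7 members, with differences of 0.99 for POLR1B, 0.95 for RRS1, 0.89 for UTP20 and 0.77 for HEATR1. Only POLR1B of these 4 was called with any 1 library left out. Between the clones, the response was larger in clone A in 23 members, with differences of 1.58 for RRP9, 1.58 for BYSL, 1.40 for BOP1 and 1.37 for RRP12. The clone A TIFM libraries were also the most variable and held relatively more counts in short genes. With an offset for exon length in each library, the response was larger in clone A than in parental cells in 33 members (median difference 0.95 log2, against 0.94 without the offset) and larger in clone A than in clone B in 22 members (median 0.56, against 0.73). The part of the variability in these differences was not tested.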

How the results depend on the processing

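Of 268 recomputed counts of called members, 232 stayed within 1.5 times the reported count. None of 1010 recomputed changes of members given library by library reversed, and 82 lost their call. With only the groups compared in the fit, the called members numbered 18 for hypoxia in clone B, 31 for hypoxia in parental cells, 14 for clone A and 6 for clone B against parental cells in normoxia, and 17 for clone B against parental cells in hypoxia. The same fit gave 1 and 3 for the hypoxia responses of clone A and clone B against parental cells, and 12 for the TIFM response of clone B, which was 13 with DESeq2, 12 with exon-length offsets and 3 with library totals. Leaving out 1 library gave 2 to 9 for hypoxia in clone B, 16 to 25 for TIFM in parental cells, 3 to 6 and 3 to 13 for clone A against parental cells in normoxia and hypoxia, 5 to 7 for clone B against parental cells in hypoxia, and 2 to 11 for the TIFM response of clone B. The cause of these shifts was not tested. Library totals moved the median of all genes in TIFM to −0.33 in clone A, −0.19 in clone B and −0.12 in parental cells, with members' medians of 1.17, 0.62 and 0.24. With the replicate block, 35, 31 and 27 members were called in TIFM and 21, 8 and 18 in hypoxia in clone A, clone B and parental cells. Same-numbered libraries correlated at −0.12 to 0.25 in their deviations and 15 of 27 lay closest to one with their own number, and no label pairs them. At these depths counting error is small for the more abundant members, and the 3 libraries a group limit the precision.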
